A study of Mus musculus with 6 samples.

Results

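Immediate early genes are the genes that a cell transcribes within minutes of a stimulus, from factors it already holds, with no new protein needed first. Calcium entry, cAMP and growth factor signals reach them through kinases that act on CREB and on serum response factor with its cofactors. Most of them encode transcription factors that act on later genes: the zinc finger proteins of the EGR family, the FOS and JUN proteins that pair as AP-1, and the orphan nuclear receptor NR4A1. Arc differs, since its protein acts at synapses, where it promotes the removal of AMPA receptors from the surface. In the striatum Fos and Egr1 are widely used as a record of recent activity in projection neurons. The set described here has 10 members, Egr1, Egr2, Egr3, Egr4, Fos, Fosb, Jun, Junb, Arc and Nr4a1. They were chosen by name, and each matched 1 row among the 47062 genes of the deposited table. All 10 passed the filter of a mean of at least 0.5 FPKM (fragments relative to transcript length and library depth), which left 16666 genes.

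RNA was sequenced from the dissected striatum, together with the adjoining subventricular zone, of mice at postnatal day 0. The 3 control libraries came from Sp9Flox/Flox littermates without Cre, and the 3 mutant libraries from Drd2-Cre;Sp9Flox/Flox animals, all on a mixed C57BL/6J, 129S6 and CD1 background. Both groups therefore carried the floxed Sp9 alleles, and only the mutants carried Cre, expressed from the regulatory region of Drd2, the gene of the dopamine D2 receptor. No library had Drd2-Cre without the floxed alleles, so the loss of Sp9 and the presence of Cre cannot be told apart. The labels do not say whether a library was 1 animal or a pool, so the spread behind each p-value is that among libraries, which may be in part technical. In bulk tissue, fewer cells of a type and less RNA per cell cannot be told apart.

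Libraries held 16237062 to 19457801 estimated fragments in genes. Sp9 averaged 18.8 ± 1.38 FPKM in control and 8.65 ± 0.906 FPKM in mutant libraries (SD, n = 3 each), without overlap. The dissected tissue carried the defining genes of striatal projection neurons, with a summed level of 10 shared markers between 1484 and 1710 FPKM in every library. The sum of 8 indirect pathway markers, from the neurons at which Drd2-Cre is aimed, was 237 to 271 FPKM in the controls and 108 to 138 in the mutants. The markers did not all fall. Drd2 itself averaged 45.0 FPKM in the controls and 44.4 in the mutants, and Six3 26.8 and 28.2. The other 6 were lower without overlap. Control replicate 3 had Xist at 0.0604 FPKM against 186 to 235 in the other libraries, so it stood alone in sex. Values without it are given for some results only, and others also changed when it was left out.

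All 10 genes had a lower estimate in the mutants, and none passed the test over all genes. Of 16666 genes tested with limma on log2(FPKM + 0.5), 0.06% (10 genes) had an adjusted p under 0.05 and 50.1% had a lower estimate in the mutants. The median log2 fold change of the 10 members was -0.28, beside -0.00016 over all genes tested. At an unadjusted p under 0.05, 3 members were lower, Egr1, Fos and Nr4a1, and none higher; over all genes 2.99% were lower at that level. Egr1, Fos and Arc had every mutant library below every control library, as had 6.05% of all genes. Of the 30 mutant values, 29 lay below the control mean of their gene, the exception being Egr2 in mutant replicate 2. They come from the same 3 libraries and are not separate observations, and no share over all genes was counted beside them. Control replicate 1, the highest library for all 10 members, raised each of these control means. Set against the lowest control instead, all 3 mutant values lay below it for Egr1, Fos and Arc. For Egr2, Fosb and Nr4a1 it was 2 of 3, for Egr3, Egr4 and Junb 1 of 3, and for Jun 0 of 3.

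**Figure D1:**
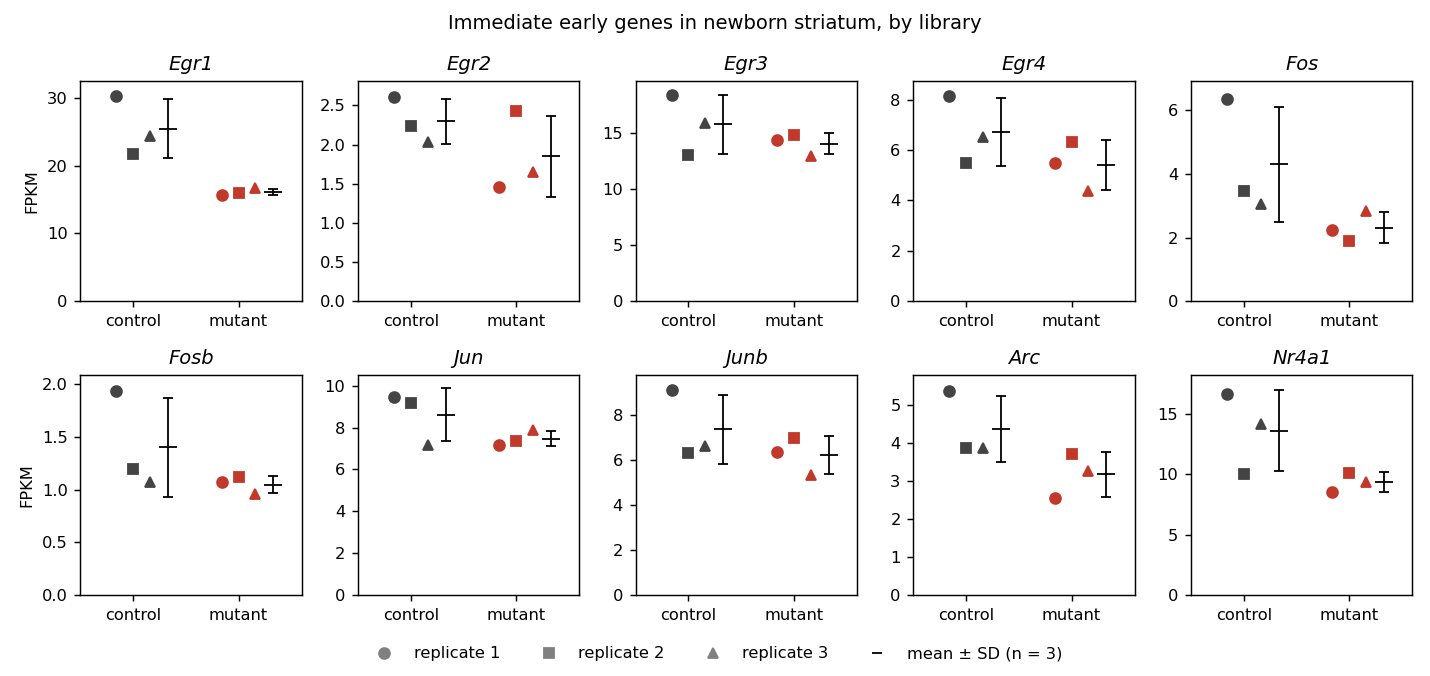
FPKM of each of the 10 immediate early genes (vertical axes, linear from 0) in the 3 control libraries (grey) and the 3 mutant libraries (red); the marker shape gives the replicate number and the black bar the mean ± SD (n = 3). The Egr1 values of the mutants lie between 15.7 and 16.7 FPKM, below all controls, and control replicate 1 is the highest library in each of the 10 panels.

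The level order was the same in both groups. Egr1 led with 25.4 ± 4.33 FPKM in the controls, followed by Egr3 with 15.8 ± 2.64, Nr4a1 with 13.6 ± 3.35, Jun with 8.61 ± 1.27, Junb with 7.36 ± 1.53, Egr4 with 6.71 ± 1.34, Arc with 4.38 ± 0.876, Fos with 4.30 ± 1.80, Egr2 with 2.30 ± 0.292 and Fosb with 1.40 ± 0.468 (SD, n = 3 each). FPKM is a level per transcript length, so these values can be set side by side. Among the controls, the ranges of Egr3 and Nr4a1, of Jun and Junb, of Junb and Egr4, and of Arc and Fos overlapped, while the other neighbours in the order did not overlap. Among the mutants Junb and Egr4, Arc and Fos, and Fos and Egr2 overlapped. The canonical activity reporter Fos was thus one of the lowest members at birth, at about the level of Arc, and Egr1 and Egr3 were the highest.

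The EGR proteins bind GC-rich sites through 3 zinc fingers, and Egr1 is the member most used to mark active neurons. Egr1 (ENSMUSG00000038418; GRCm38 chromosome 18, 34859823 to 34864984, plus strand) had 30.2, 21.8 and 24.3 FPKM in control replicates 1 to 3 and 15.7, 16.0 and 16.7 FPKM in mutant replicates 1 to 3. The controls were spread over a wider range than the mutants, and the groups did not overlap. The log2 fold change was -0.63 ± 0.12 (SE; 95% interval -0.93 to -0.33), a mean 36.6% lower, with an unadjusted p of 0.00238 and an adjusted p of 0.566 with limma. That p was the 69th smallest of the 16666. Without control replicate 1, the highest library, the log2 fold change of Egr1 was -0.50 (95% interval -0.68 to -0.32) and the unadjusted p 0.00104 with limma. That was the smallest p with 1 library left out. Without control replicate 3 the log2 fold change was -0.65 (unadjusted p = 0.00785, limma). The largest unadjusted p was 0.0101, without mutant replicate 1 (log2 fold change -0.61, limma).

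Egr3, needed for muscle spindles in mice, had 18.4, 13.1 and 16.0 FPKM in the controls and 14.4, 14.8 and 13.0 in the mutants. Mutant replicates 1 and 2 lay inside the control range and mutant replicate 3 just below it, with a log2 fold change of -0.15 ± 0.13 (SE; 95% interval -0.47 to 0.17). That estimate was -0.04 without control replicate 1, -0.10 without mutant replicate 3 and -0.28 without control replicate 2 (unadjusted p = 0.0350, limma). Egr4, needed for male fertility in mice, had 5.47 to 8.14 FPKM in the controls and 4.38 to 6.33 in the mutants, with overlapping groups (log2 fold change -0.29 ± 0.18, and -0.15 without control replicate 1 or -0.16 without mutant replicate 3). Egr2, known for its role in Schwann cells and in the hindbrain, had 2.61, 2.24 and 2.04 FPKM in the controls and 1.46, 2.43 and 1.65 in the mutants. Its log2 fold change of -0.27 was -0.15 without mutant replicate 1 and -0.44 without mutant replicate 2 (unadjusted p = 0.0341, limma). Mutant replicate 2 stood inside the control range by FPKM, but not by the deposited count columns, where each library's fragment estimates carry a scaling factor of their own (scaled counts, for short). On that scale Egr2 had 137, 115 and 102 in the controls and 77.1, 93.1 and 84.1 in the mutants, with no overlap. The FPKM of Egr2 per scaled count varied by a factor of 1.38 between libraries and was highest in mutant replicate 2, whereas for the 8 members other than Egr2 and Fos this factor was at most 1.04; for Fos it was 1.11.

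Some members differed in their ratio to each other within the libraries. The ratio of the FPKM of Egr1 to that of Egr3 was 1.64, 1.66 and 1.53 in control replicates 1 to 3 and 1.10, 1.08 and 1.28 in mutant replicates 1 to 3. Control replicate 1, the highest library for both genes, had a ratio inside the range of the other 2 controls. On scaled counts the ratio was 3.61 to 3.89 in the controls and 2.51 to 2.99 in the mutants. This pair was singled out after its values were seen. Of the 45 ratios between members, 5 had groups that did not overlap: Egr1 to Egr3, to Jun and to Junb, and Fos to Jun, were lower in the mutants, and Egr3 to Nr4a1 was higher. These are 11.1% of the member ratios, beside 11.4% of the ratios between all pairs of the 15855 tested genes above 0 in every library, so the members did not stand out by this count. Against each of the other 16665 genes tested, the ratio of Egr1 was lower without overlap for 78.3%, and against the 9 other members for 3 of 9. Egr1 itself did not overlap between the groups, so its ratio to any gene of steady level separates them too. The 78.3% therefore adds nothing to the Egr1 values.

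**Figure D2:**
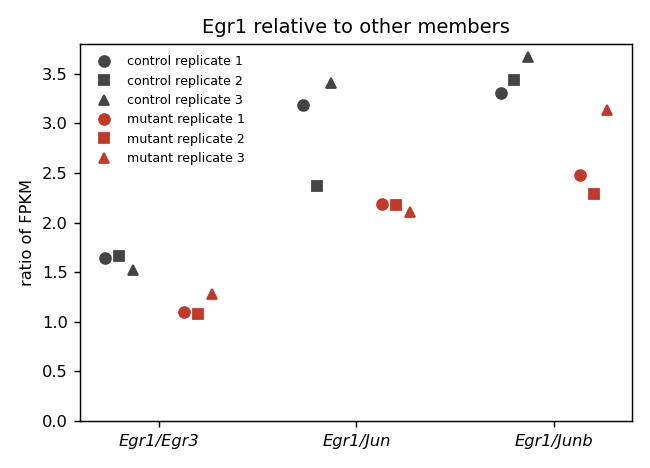
Ratio of the FPKM of Egr1 to that of Egr3, Jun and Junb (vertical axis, from 0) within each library; controls are grey, mutants red, and the marker shape gives the replicate. The Egr1 to Egr3 ratio is 1.53 to 1.66 in the controls and 1.08 to 1.28 in the mutants.

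FOS proteins pair with JUN proteins to form AP-1, the dimer that binds the sites of many later genes. Fos (ENSMUSG00000021250; GRCm38 chromosome 12, 85473890 to 85477273, plus strand) had 6.36, 3.48 and 3.06 FPKM in the controls and 2.24, 1.88 and 2.83 in the mutants. Control replicate 1 was 1.95 times the mean of the other 2 controls, and the groups did not overlap. The log2 fold change was -0.72 ± 0.28 (SE; 95% interval -1.42 to -0.02), with an unadjusted p of 0.0451 and an adjusted p of 0.858 with limma. Without control replicate 1 it was -0.43 (95% interval -0.91 to 0.04; unadjusted p = 0.0663, limma), and with 1 library left out the unadjusted p of Fos stayed under 0.05 only without control replicate 3 (0.0287) or mutant replicate 3 (0.0489). Fos was counted from 62 to 204 fragments per library; counting alone gives a relative error of 12.7% at the lowest of these, against a coefficient of variation of 41.8% among the controls.

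Fosb, whose shorter splice form accumulates in the striatum on repeated stimulation, had 1.94, 1.19 and 1.07 FPKM in the controls and 1.07, 1.12 and 0.956 in the mutants. Only control replicate 1 stood apart, and without it the log2 fold change went from -0.27 to -0.08. Jun had 7.15 to 9.48 FPKM in the controls and 7.18 to 7.90 in the mutants (log2 fold change -0.18 ± 0.12), so all 3 mutants lay inside the control range. The low end of that range for Jun was control replicate 3 alone; without it all 3 mutants lay below the other 2 controls (9.48 and 9.20), with a log2 fold change of -0.30, an unadjusted p of 0.0125 and an adjusted p of 0.999 with limma. Without control replicate 1 the estimate for Jun was -0.11. Junb, often described as a partner that restrains JUN, had 6.33 to 9.13 FPKM in the controls and 5.32 to 6.99 in the mutants, and its log2 fold change of -0.22 was -0.06 without control replicate 1 and -0.12 without mutant replicate 3. An antisense gene, Junos, overlaps Jun, and Prdx2 overlaps Junb on the other strand; the use of strand is not given in the sources used here, so fragments of those genes cannot be told apart from these 2 members.

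Nr4a1, also known as Nur77, encodes a nuclear receptor that needs no known ligand and is induced in striatal neurons by changes in dopamine signalling. Nr4a1 (ENSMUSG00000023034; GRCm38 chromosome 15, 101254269 to 101274795, plus strand) had 16.6, 9.98 and 14.1 FPKM in the controls and 8.51, 10.1 and 9.35 in the mutants. Control replicate 2 lay among the mutants, and the other 2 controls lay above all of them. The log2 fold change was -0.49 ± 0.19 (SE; 95% interval -0.96 to -0.02), with an unadjusted p of 0.0426 and an adjusted p of 0.858 with limma. Without control replicate 1 it was -0.34 (95% interval -0.78 to 0.11), and without control replicate 2 it was -0.69 (unadjusted p = 0.00198, limma), the 1 such omission under which the unadjusted p of Nr4a1 stayed under 0.05.

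Arc (ENSMUSG00000022602; GRCm38 chromosome 15, 74669083 to 74672570, minus strand) is the 1 member whose product is not a transcription factor. It had 5.39, 3.87 and 3.87 FPKM in the controls and 2.55, 3.72 and 3.28 in the mutants. The groups did not overlap, although mutant replicate 2 came close to the lower controls. The log2 fold change was -0.40 ± 0.18 (SE; 95% interval -0.85 to 0.04; unadjusted p = 0.0690, limma), and -0.26 without control replicate 1.

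**Figure D3:**
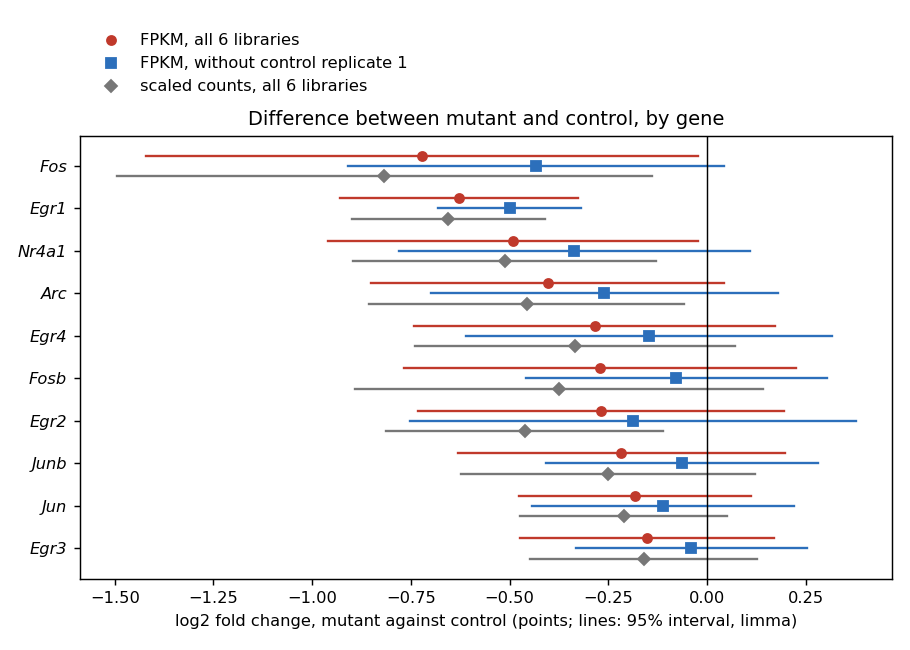
Log2 fold change of mutant against control (horizontal axis) for each gene, ordered by its FPKM estimate; points are limma estimates and lines 95% intervals, for FPKM in all 6 libraries (red), FPKM without control replicate 1 (blue) and scaled counts (grey). All 30 estimates are below 0, and those without control replicate 1 are nearer to 0 than those from all 6 libraries.

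The members shared their highest library. Control replicate 1 was the highest library for 10 of 10 members, while 18.4% of all genes tested were highest there. After each gene was centred on its own mean, the average over the members was 0.47 in control replicate 1, 0.01 and 0.06 in control replicates 2 and 3, and -0.24, -0.09 and -0.21 in mutant replicates 1 to 3, on the log2 scale. Mutant replicates 1 and 3 were each below the gene mean for all 10 members, and mutant replicate 2 for 5. Control replicates 2 and 3 lay between control replicate 1 and the mutants in this average. Without control replicate 1 the median log2 fold change of the members was -0.17, and 1 member, Egr1, kept an unadjusted p under 0.05; without mutant replicate 1 it was also 1 member. Without control replicate 3 the median was -0.36.

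**Figure D4:**
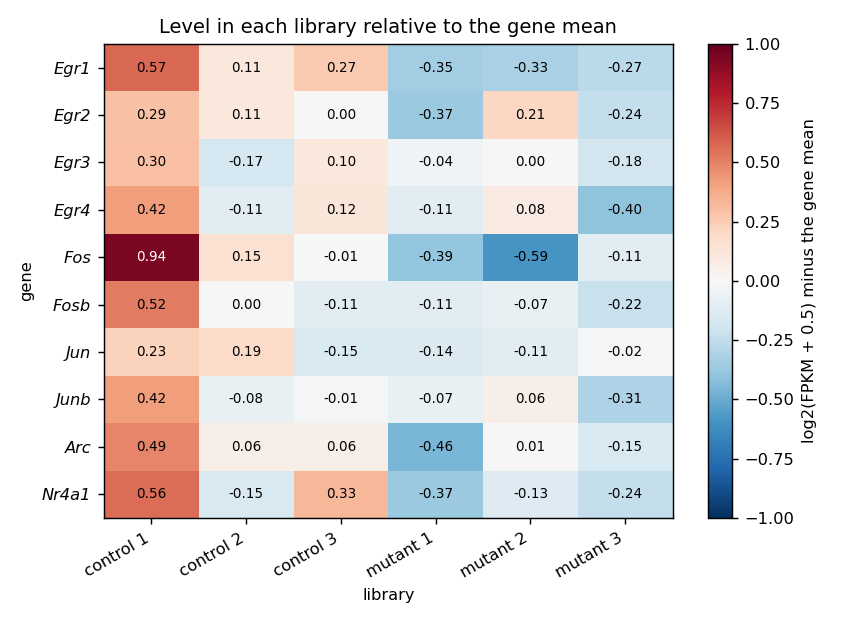
Level of each gene (rows) in each library (columns) as log2(FPKM + 0.5) minus the mean of that gene over the 6 libraries; red is above and blue below the mean, and the number is printed in each cell. Control replicate 1 is above the mean in every row, by 0.23 (Jun) to 0.94 (Fos).

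On scaled counts 0.143% of 16125 genes passed an adjusted p of 0.05 with limma, and again no member was among them. The adjusted p of Egr1 was lowest there, at 0.0893, with a log2 fold change of -0.66. At an unadjusted p under 0.05, 5 members were lower on this scale, Egr1, Egr2, Fos, Arc and Nr4a1, against 3.19% of all genes. All 10 estimates were again below 0.

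Sequences at the gene starts are shown as background, since CREB and serum response factor are the textbook regulators of this class. Their part in the levels of these libraries was not tested. RefSeq windows on GRCm38.p6, from 250 bases before to 50 after a start site, matched 7 of the 10 members; Egr1, Egr3 and Arc had no entry. The 180 bases before the start follow, 5′ to 3′, for the 2 members with a window that were lower at an unadjusted p under 0.05 (Fos and Nr4a1), for the 1 with a CArG box (Egr2) and for the 1 with neither a CRE core nor a CArG box (Jun). Capitals mark the CRE core TGACG on either strand and the CArG box, the site of serum response factor.
Fos, chr12:85473710-85473889, plus strand: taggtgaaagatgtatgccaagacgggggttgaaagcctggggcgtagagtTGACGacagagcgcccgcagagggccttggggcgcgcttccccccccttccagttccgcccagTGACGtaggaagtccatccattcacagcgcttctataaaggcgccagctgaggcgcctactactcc
Nr4a1, chr15:101266666-101266845, plus strand: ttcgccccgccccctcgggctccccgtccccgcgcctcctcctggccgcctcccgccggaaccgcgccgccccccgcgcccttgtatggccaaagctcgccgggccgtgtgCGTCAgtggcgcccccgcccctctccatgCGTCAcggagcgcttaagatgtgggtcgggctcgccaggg
Egr2, chr10:67537689-67537868, plus strand: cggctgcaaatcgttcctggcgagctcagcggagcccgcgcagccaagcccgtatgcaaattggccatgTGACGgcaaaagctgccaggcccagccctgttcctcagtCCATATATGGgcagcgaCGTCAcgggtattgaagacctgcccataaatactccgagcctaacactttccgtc
Jun, chr4:95052223-95052402, minus strand: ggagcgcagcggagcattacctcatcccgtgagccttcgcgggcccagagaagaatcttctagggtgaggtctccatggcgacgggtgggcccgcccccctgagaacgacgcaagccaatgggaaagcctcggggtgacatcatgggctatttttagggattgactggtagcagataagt

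The sequence TGACG, the core of the cAMP response element that CREB binds, was found on 1 or the other strand in the windows of 6 of these 7 members (Egr2, Egr4, Fos, Fosb, Junb and Nr4a1), against 20.8% of all 32851 windows in the table. In Fos it began 129 and 66 bases before the start, and in Nr4a1 it was found 4 times, 2 of them in the stretch shown. The full palindrome TGACGTCA, which contains the core on both strands, was in none of the 7 and in 1.79% of all windows. A CArG box was found in Egr2 alone of the 7, and in 1.63% of all windows. In Egr2 it lay 72 to 63 bases before the start at 67537869, and a separate match lay 72 to 63 bases before that at 67537566. Sites more than 250 bases before a start lie outside these windows and were not searched. The GC box GGGCGG, the site of SP proteins, was in 5 of the 7 (Egr2, Fos, Fosb, Jun and Nr4a1) and in 35.7% of all windows. The EGR site GCGGGGGCG was in Fosb and Nr4a1 and in 2.91% of all windows, and the AP-1 site TGANTCA in none of the 7 and in 7.81%. Egr2 has 5 windows, from alternative starts, and a match in any of them was counted, whereas the shares of all windows are per single window.

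Other genes of the response had estimates in both directions. Of 40 further immediate early genes, 38 passed the filter on level and 0 passed an adjusted p of 0.05 with limma. At an unadjusted p under 0.05, 2 were lower, beside 2.99% of all genes, and 0 higher. Estimates were lower for 23, beside 50.1% of all genes, and higher for 15 (median log2 fold change -0.03). The 2 were Ier5, an immediate early gene linked to the heat shock response, and Myc. Ier5 had 21.5, 23.7 and 20.4 FPKM in the controls and 16.7, 16.5 and 17.9 in the mutants. Its log2 fold change was -0.35 (unadjusted p = 0.00294, adjusted p = 0.566, limma), beside an unadjusted p of 0.00238 for Egr1. Myc had 24.8, 27.7 and 24.5 against 20.4, 22.3 and 22.6 (log2 fold change -0.23, unadjusted p = 0.0160, limma). Both had groups that did not overlap. In neither was control replicate 1 the highest library. Of these 38 genes, 10 were highest in control replicate 1, among them the AP-1 gene Fosl2, the neuronal factor gene Npas4 and the Nr4a1 relative Nr4a3. Npas4 had 22.4, 14.1 and 18.9 FPKM in the controls and 16.9, 15.0 and 13.9 in the mutants, and the groups overlapped. Nr4a2 had 0.253, 1.27 and 0.183 FPKM in the controls and 3.37, 0.156 and 1.59 in the mutants, a scatter with no order by group. The phosphatase gene Dusp1, also induced within minutes, had 9.37 to 11.3 FPKM in the controls and 10.8 to 11.8 in the mutants.

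Of 18 genes for the factors that bind these promoters or assist there, none had an unadjusted p under 0.05, and the median log2 fold change was -0.04. Srf had 21.5 ± 0.727 FPKM in control and 20.6 ± 1.24 in mutant libraries (SD, n = 3 each), and Creb1 20.3 to 23.7 and 19.5 to 23.1. Crtc1, a CREB coactivator, had the smallest p of the list (0.0618 unadjusted, limma), with 40.7 to 41.9 FPKM against 38.3 to 39.4. Among 29 kinase and calcium signalling genes, 1 was lower at an unadjusted p under 0.05, the RSK family kinase gene Rps6ka3 (26.0 ± 0.826 FPKM against 24.1 ± 0.0705), and the median was -0.03. Of 12 measured corepressors and partners, with Nab1 and Nab2 in the list, none had an unadjusted p under 0.05; Jdp2 had the smallest, with 2.40 to 2.49 FPKM against 2.81 to 2.92. Of 9 partners of NR4A proteins and ARC, the endophilin gene Sh3gl2 was higher (20.3 to 23.8 FPKM against 24.2 to 29.7; unadjusted p = 0.0349, limma).

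Of 16 genes that respond later to activity, 14 were measured, with 10 estimates higher and 4 lower and a median log2 fold change of 0.12. At an unadjusted p under 0.05, Penk was lower (57.0, 43.0 and 52.5 FPKM against 19.7, 24.3 and 6.78) and Pdyn higher (19.6, 13.7 and 17.6 against 27.1, 25.9 and 19.7). Both also mark the classes of projection neuron, Penk the indirect and Pdyn the direct pathway. Bdnf, a classic late target in cortex, was under 0.1 FPKM in every library. Vgf, Scg2 and Nptx1 had groups that overlapped. None of these lists held a gene past an adjusted p of 0.05 with limma.

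**Figure D5:**
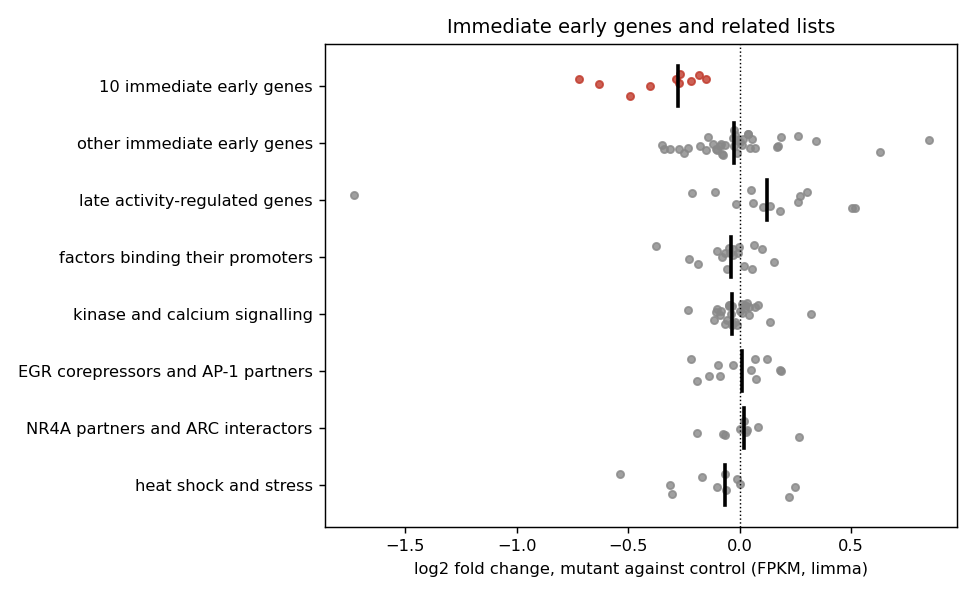
Log2 fold change of mutant against control (horizontal axis, limma on FPKM) of every measured gene in 8 lists, 1 point per gene (vertical scatter within a list has no meaning) with the list median as a black line. The 10 immediate early genes (red) all lie below 0 with a median of -0.28, while the other 7 medians lie between -0.07 and 0.12.

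Markers of other tissue and of handling were read beside these values. The dissected tissue borders the cortex. The summed level of 10 cortical glutamatergic markers was 8.97 to 25.3 FPKM in the controls and 37.8, 9.53 and 64.0 in mutant replicates 1 to 3. Mutant replicate 2 thus lay inside the control range. All 8 measured markers had a higher estimate in the mutants, while 50.1% of all genes tested had a lower one. None of the 8 had an unadjusted p under 0.05 with limma, and none was at 0. Control replicate 1, with the highest immediate early genes, had 23.7. Among 12 heat shock and stress genes, 11 were measured, with 8 estimates lower and 3 higher (median log2 fold change -0.07). Their sum was 710 to 767 FPKM in the controls and 667 to 721 in the mutants. Most of it came from Hspa8 and Hsp90aa1, with means of 368 and 237 FPKM in the controls. Hspa1b had 2.13 to 4.22 FPKM in the controls and 1.66 to 2.12 in the mutants (log2 fold change -0.54, unadjusted p = 0.0628, limma). Estimates were -0.31 for Hspa1a and -0.30 for Hspb1, with overlapping groups. Without overlap, 2 of the 11 were lower, Hspa1b and Dnajb1, beside 6.05% of all genes, and 1 was higher. Of the 11 only Ddit4 had an unadjusted p under 0.05, and it was higher (29.3 to 32.9 FPKM against 36.6 to 37.0). Vessel markers summed to 56.5 to 65.6 and 56.8 to 64.0 FPKM, and microglial markers to 35.5 to 39.8 and 37.9 to 43.6. Progenitor markers summed to 130 FPKM in control replicate 1 and 77.0 and 79.3 in the other 2 controls, and to 113, 83.4 and 135 in mutant replicates 1 to 3. Control replicate 1 also had the highest oligodendrocyte lineage sum among the controls (88.6 against 73.0 and 68.0, with 64.0 to 87.2 in the mutants) and the lowest red blood cell sum of any library (403 against 647 and 546 in the other 2 controls and 541 to 958 in the mutants). The sums of 2 lists were higher in every mutant than in any control: meningeal fibroblast markers, with 2.84 to 3.52 FPKM in the controls and 3.94 to 4.86 in the mutants, and choroid plexus markers, with 0.952 to 1.97 and 2.01 to 2.19. Lum, a meningeal marker, was listed at 0 in mutant replicate 3, and Folr1, a choroid plexus marker, at 0 in every library. The choroid plexus difference was that of Ttr, with a mean of 0.392 FPKM in the controls and 1.35 in the mutants. Clic6 had a lower mean in the mutants (0.845 against 0.559), and Kl overlapped between the groups at a low level. Astrocyte markers summed to 87.3 to 115 FPKM and 91.7 to 116, and direct pathway markers to 441 to 473 and 454 to 502. Among the 8 indirect pathway markers, Drd2 had a log2 fold change of -0.02 and Six3 of 0.07. In this list 7 estimates were lower, beside 50.1% over all genes tested, and 6 were lower without overlap, beside 6.05%. The part of these differences in the immediate early genes was not tested.

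Over the 6 libraries, centred profiles were also compared with that of the member mean by their root-mean-square difference on the log2 scale, among 13048 genes with a mean of at least 2 FPKM. Among the nearest were Tdrp (0.0546), Pard3 (0.0627), Rgp1 (0.0828), Mylip (0.0907) and Hps5 (0.0921). None of these is in the list of further immediate early genes. Members themselves lay between 0.0898 (Fosb) and 0.296 (Fos) from their own mean profile, and a flat profile lies 0.238 from it. With 6 libraries and so many genes, near profiles are a description of these libraries.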

How the data were processed

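RNA-seq of newborn mouse striatum was deposited as 1 table of Ensembl genes; each of 6 libraries has an FPKM and a count column, per the file headers. Per the submitters' processing notes, TopHat (version not given) and Cufflinks 2.1.1 were used with build GRCm38.p4. The annotation release, strand use and handling of reads with several matches: not given in the sources used here. The authors' count columns are used as a signal: they are not whole, and 97.9% of the values, vanishing estimates aside, are whole multiples (tolerance 0.1) of a step that differs between libraries; dividing by the step gave the estimated fragments. Symbols and positions came from GENCODE M21 (46483 identifiers named).

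Columns were matched to libraries by the codes in the labels. Mutant and control log2(FPKM + 0.5) were compared with limma 3.58.1 (R 4.3.3, variance trend, no covariate) wherever the mean FPKM reached 0.5; p-values are two-sided, with Benjamini-Hochberg adjustment over all genes and a threshold of 0.05. FPKM values are as the authors deposited them, and fold changes on this scale understate those of low genes. The steps were tested on simulated data. The members, the 8 pathway and 12 marker lists, the alternatives and the rules were chosen with earlier results of these data known. Named genes are the 10 members, Sp9, list genes with an unadjusted p under 0.05 or else the smallest p, and the 6 nearest profiles; not every gene that this rule takes is reported here. Fosl2, Npas4, Nr4a2, Nr4a3, Dusp1, Srf, Creb1, Bdnf, Vgf, Scg2 and Nptx1 were named after their values were seen. So were Drd2, Six3, Hspa8, Hsp90aa1, Hspa1a, Hspa1b, Hspb1 and Dnajb1. Intervals are 95% and, like counting errors, do not cover differences in dissection.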

Additional observations from a re-analysis of the deposited data

How the results depend on the processing

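All 10 members had a lower estimate in the mutants under each of the 15 alternatives run, and no member had an adjusted p under 0.05 in any of them (limma); the adjusted p of Egr1 ran from 0.0893 to 0.999. The count of all genes past the threshold was 10 as reported, 5 with the replicate block, 23 on scaled counts, and between 12 and 23 when each library was left out. Members at an unadjusted p under 0.05 numbered 3 as reported, 1 with the replicate block, 5 on scaled counts, and between 1 and 3 when each library was left out. The median log2 fold change of the members ran from -0.42 to -0.17 with 1 library left out, nearest to 0 without control replicate 1; the cause was not tested. Same-numbered libraries had correlations of deviations of 0.0025, 0.0372 and 0.0433, and the other pairs ran from -0.0683 to 0.0328. With 3 libraries in each group these values cannot decide whether same-numbered libraries were paired. The planned count test was not run, because the count columns hold vanishing and fractional estimates beside the multiples of the step. With 53 to 118 fragments per library, Fosb is the member that depth limits most: counting alone gives an error of 13.7% at the lowest.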
